A study of Mus musculus with 31 samples.

Results

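DNA methylation was followed at the maternal imprints of mouse chromosome 2, which are Mcts2, Nnat and the Nespas and exon 1A regions of the Gnas cluster, in oocytes from primordial to antral follicles. The members were all CpG sites listed in any library within 4 windows of the mouse build mm9: Mcts2 at chr2:152511500-152514000, Nnat at chr2:157384500-157388500, Nespas at chr2:174119000-174126500 and Gnas exon 1A at chr2:174152500-174155500. They came to 256 of the 1419929 CpG sites listed in the series, with 26 in Mcts2, 47 in Nnat, 121 in Nespas and 62 in exon 1A. The windows are defined by position and not by a cut on measured values, but they were chosen with earlier results of these data known. The level of a window in a library is the number of methylated reads over all reads, in percent, each summed over sites with at least 5 reads.

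Oocytes of B6D2F1 (C57BL/6 x DBA/2) mice were profiled by reduced representation bisulfite sequencing, in which the enzyme MspI cuts DNA at CCGG and bisulfite turns unmethylated cytosine into a base read as T. The 31 libraries form 9 stages: Type1 and Type2 from primordial follicles, Type3a and Type3b from primary follicles, Type4, Type5a and Type5b from secondary follicles, and Type6 and Type7 from antral follicles. Type4 and Type5a had 5 libraries each and the other 7 stages 3 each. The labels do not say how many oocytes or animals stood behind a library, give no age, and name no treatment or mutant. The p-values therefore rest on the spread between libraries alone, and part of that spread may be technical.

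At imprinted genes the 2 parental copies are read differently, and a DNA methylation mark laid down in the germ line of one parent tells them apart. Maternal imprints are written in the growing oocyte by the methyltransferase DNMT3A with its partner DNMT3L, after the marks of the previous generation were erased in early germ cells. Mcts2 is a retrogene within an intron of H13, and Nnat, which encodes the membrane protein neuronatin, lies within an intron of Blcap. Nespas is a noncoding transcript antisense to Nesp, and exon 1A is an alternative first exon of Gnas, the gene of the stimulatory G-protein alpha subunit. In each of the 4 regions the maternal copy carries the methylation in the offspring.

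The promoter windows of the RefSeq table (build GRCm38.p6) were placed on the mm9 sites by matching their letters to the 5-letter contexts deposited with each site, without converting coordinates. The first of 2 placed promoters is that of Mcts2, shown because its CpGs are the ones measured here. It is chr2:152686898-152687147 of GRCm38.p6 on the plus strand, the 250 bases before the start site, and 18 of the 25 CpGs in the whole window matched listed sites between mm9 positions 152512640 and 152512884, against 3 at the next best place. The second is the Gnas promoter at chr2:174329756-174330005 of GRCm38.p6, also on the plus strand, shown because it lies between the methylated sites of exon 1A and an unmethylated fragment. It matched 13 sites between mm9 positions 174155459 and 174155551, against 5 at the next best place, and none of those sites had 5 reads in any library. Capitals mark the matched CpGs within the printed bases.
Mcts2: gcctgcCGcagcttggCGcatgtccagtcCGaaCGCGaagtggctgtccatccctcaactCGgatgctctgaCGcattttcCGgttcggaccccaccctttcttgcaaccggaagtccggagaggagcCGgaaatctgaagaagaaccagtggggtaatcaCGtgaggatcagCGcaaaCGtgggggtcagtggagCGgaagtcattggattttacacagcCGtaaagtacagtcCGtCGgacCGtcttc
Gnas: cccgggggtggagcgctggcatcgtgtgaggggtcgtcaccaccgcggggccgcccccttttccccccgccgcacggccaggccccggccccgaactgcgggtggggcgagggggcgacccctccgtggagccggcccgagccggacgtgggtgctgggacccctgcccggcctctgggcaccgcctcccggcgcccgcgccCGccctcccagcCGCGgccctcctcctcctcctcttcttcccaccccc
The Nnat promoter and the other 3 Gnas promoters of the table could not be placed on listed sites.

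Methylation at all 4 regions was near 0 in primordial follicles and near complete in antral follicles. Mcts2 averaged 96.0% ± 5.00 in antral and 1.50% ± 2.55 in primordial libraries (SD, n = 6 each), a difference of 94.5 points. Nnat averaged 92.9% ± 9.37 in antral and 1.57% ± 2.30 in primordial libraries, Nespas 94.2% ± 5.07 in antral and 4.98% ± 2.99 in primordial libraries (SD, n = 6 each). Exon 1A averaged 95.4% ± 4.97 (SD, n = 6) in antral and 2.75% ± 4.21 (SD, n = 5) in primordial libraries. The groups did not overlap at any of the 4 regions. The exact two-sided permutation p was 0.00216 for Mcts2, Nnat and Nespas and 0.00433 for exon 1A, in each case the smallest that these group sizes allow. The differences were 91.3 points for Nnat, 89.2 for Nespas and 92.7 for exon 1A, and 16 such tests were made over the 4 regions, with unadjusted p-values. With windows widened by 500 bp, the exon 1A difference was 49.7 points (exact permutation p = 0.00216).

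Fixed 100-bp tiles of the whole genome were tested by a quasi-binomial F test on their reads. A tile was called where the Benjamini-Hochberg adjusted p was under 0.05 and the levels lay 20 points or more apart. A tile needed at least 3 sites with at least 5 reads in a library, and at least 2 such libraries in each group. Of the 32 tiles of the 4 regions with any value, 23 could be tested for antral against primordial libraries. Of these, 20 were called higher in antral libraries and 0 lower, beside 25.5% of all 90684 tiles tested called higher and 0.043% called lower. In 21 of the 23 every antral library lay above every primordial one, as in 23.8% of all tiles tested. The tiles called were 3 of 3 in Mcts2, 5 of 6 in Nnat, 9 of 11 in Nespas and 3 of 3 in exon 1A. The median difference over the 23 tiles was 91.1 points, and over all tiles tested it was 5.59 points. Mcts2 tile 1, at chr2:152512601-152512700, stood at 95.7% in antral and 1.01% in primordial libraries (quasi-binomial F test, adjusted p = 2.35e-08). Nespas tile 10, at chr2:174125101-174125200, stood at 99.9% in antral and 4.10% in primordial libraries (adjusted p = 5.68e-09), and Gnas exon 1A tile 3, at chr2:174154101-174154200, at 96.2% in antral and 2.65% in primordial libraries (adjusted p = 5.64e-07). The smallest difference among the named tiles was that of Nnat tile 4, at chr2:157386101-157386200, with 70.3% in antral and 0.652% in primordial libraries (adjusted p = 0.0118). The 3 tiles not called, 1 in Nnat and 2 in Nespas, differed by 65.4, 92.2 and 52.6 points.

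Reads behind a value ran from 95 to 2815 per library in Mcts2, 135 to 5462 in Nnat, 131 to 3821 in Nespas and 25 to 3448 in exon 1A. Sites behind a value ran from 8 to 26 in Mcts2, 14 to 45 in Nnat, 13 to 91 in Nespas and 5 to 45 in exon 1A. Libraries of one stage therefore need not share sites. The 95% Wilson half-width had a median of 1.35 to 1.69 points by region and was at most 9.83 points. Of the 118 library values, 10 were 0, and 3 counts of their reads give limits of 0.127 to 2.22%. Reads are summed over sites, so a read over several CpGs counts at each of them. Intervals and limits treat these counts as independent, and no molecular identifiers were used to count molecules. They cover no more than counting error and can be narrower than it. Exon 1A had a value in 26 libraries and Nnat in 30, and the lowest depth, 25 reads over 5 sites, was that of exon 1A in Type7 replicate 3.

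DNA of other cells was watched through an X measure, the mean level of CpG-dense X tiles minus that of CpG-dense autosomal tiles in points. CpG islands of an inactive X are methylated in female body cells, while a growing oocyte keeps both X chromosomes active. The measure was above 0 in 9 of 31 libraries. In antral follicles these were Type6 replicates 1 and 2, in secondary follicles replicates 5 and 7 of Type5a and replicates 1, 2 and 5 of Type4, and before that 1 library each of Type3a (replicate 1) and Type1 (replicate 3). It was highest in Type4 replicate 2, at 10.6 points, and Type4 replicate 5, at 9.94 points. Imprint regions are methylated on one parental copy in body cells, so the measure is given with the results for intermediate levels.

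Mcts2, read in all 31 libraries, held intermediate levels in several primary libraries. Its Type1 libraries were at 0.129, 0 and 6.25% and the Type2 libraries at 0, 0 and 2.61%. In primary follicles, Type3a libraries were at 29.7, 3.53 and 6.03% and Type3b libraries at 21.2, 17.7 and 7.00%. In early secondary follicles, Type4 libraries were at 18.4, 30.4, 0.656, 25.1 and 3.09%, and Type5a libraries at 37.7, 25.6, 46.3, 36.4 and 49.7%. All 5 Type5a libraries thus lay above all primordial libraries. Type4 replicates 1, 2 and 5, at 18.4, 30.4 and 25.1%, had an X measure above 0. Type4 replicates 4 and 6, at 0.656 and 3.09%, did not. Among primary libraries only Type3a replicate 1, at 29.7%, had an X measure above 0. The part of the X measure in these levels was not tested. Type5b libraries were at 82.8, 82.4 and 94.7%, Type6 libraries at 95.6, 100 and 87.6%, and Type7 libraries at 99.8, 93.2 and 100%. Mcts2 was the region with the highest mean in Type5a, at 39.1% ± 9.43 (SD, n = 5), which is 39.8% of the way from the primordial to the antral mean.

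Nespas also held partial methylation before Type5b. Its Type1 libraries were at 2.77, 0.749 and 8.54% and its Type2 libraries at 5.26, 4.57 and 7.97%. Type3a libraries were at 22.3, 16.8 and 0.585%, and Type3b libraries at 9.13, 39.6 and 23.7%. Type4 libraries were at 10.5, 47.0, 6.87, 24.8 and 11.1%, and Type5a libraries at 44, 26.4, 32.6, 10.5 and 30.5%. Primary and early secondary libraries overlapped widely. An X measure above 0 was found in Type4 replicates 1, 2 and 5, at 10.5, 47.0 and 24.8%. It was also found in Type5a replicates 5 and 7, at 32.6 and 30.5%, and in Type3a replicate 1, at 22.3%. Levels reached 86.5, 81.9 and 70.1% in Type5b, 98.6, 87.8 and 88.4% in Type6, and 94.2, 99.4 and 96.9% in Type7.

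Exon 1A, in the same cluster, was at 15.3% or less through Type5a in all but 2 libraries, and above 85% in every library from Type5b on that had a value. Type1 libraries with a value were at 0 and 3.66%, and Type2 libraries at 0, 0.349 and 9.75%. Type3b libraries were at 4.31, 6.15 and 4.30%, Type4 libraries at 0.763, 33.2, 0 and 10.7%, and Type5a libraries at 4.36, 7.10, 15.3 and 0.844%. Type4 replicate 6, at 10.7%, had 20 of its 45 sites with at least 10 reads above 80% and 22 below 20%. Over the Type4 libraries, 16.7% of such site values were above 80%, 20% lay between 20 and 80% and 63.3% were below 20%. Type4 replicate 2, at 33.2%, had an X measure of 10.6 points. Type5b libraries were at 85.2 and 91.6%, Type6 libraries at 89.8, 99.2 and 93.8%, and Type7 libraries at 89.7, 100 and 100%. Type5b replicate 2 had no site with 5 reads here. At a minimum of 3 reads per site it was at 4.17%, with 3 of 72 reads methylated over 22 sites, within the range of the Type5a libraries. The Type5a mean of 6.89% ± 6.14 (SD, n = 4) is 4.46% of the way from the primordial to the antral mean. Type3a stands apart because its replicate 1 was at 87.9%, with 152 of 173 reads methylated over 22 sites, while its replicate 2 was at 2.01%. That library had no site with 10 reads here, and its X measure was 1.86 points.

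Nnat had the lowest mean of the 4 regions in Type5b and the widest spread there. Type1 libraries were at 4.01, 0.0498 and 5.01%, and Type2 libraries at 0.355, 0 and 0%. Type3a libraries were at 14.8, 0.322 and 0.231%, and Type3b libraries at 2.09, 3.39 and 2.39%. Type4 libraries were at 23.6, 0, 2.49, 9.75 and 10.5%, and the 4 Type5a libraries with a value at 21.7, 0, 42.6 and 21.0%. Replicates of one stage therefore ran from no methylated reads to over 40%, but they were not read at the same sites. These Type5a values rest on 36, 20, 19 and 45 sites in the order given. Of the 47 listed sites, 17 had values in 2 or more libraries of each stage. In Nnat tile 2, at chr2:157385901-157386000, the 3 Type5a libraries with a value lay at 37.1 to 44.2%. The library at 0% had no value in that tile. The X measure was above 0 in Type4 replicates 1, 2 and 5, at 23.6, 0 and 9.75%. It was also above 0 in Type5a replicates 5 and 7, at 42.6 and 21.0%, and in Type3a replicate 1, at 14.8%. Type5b libraries were at 85.7, 21.1 and 46.6%, a mean of 51.2% ± 32.5 (SD, n = 3), while the other 3 regions averaged 79.5 to 88.4% in Type5b. Those 3 Nnat values rest on 40, 15 and 19 sites, so part of their spread may come from the sites read. Type6 libraries were at 75.3, 96.4 and 89.5%, and Type7 libraries at 99.3, 99.7 and 97.1%.

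**Figure D1:**
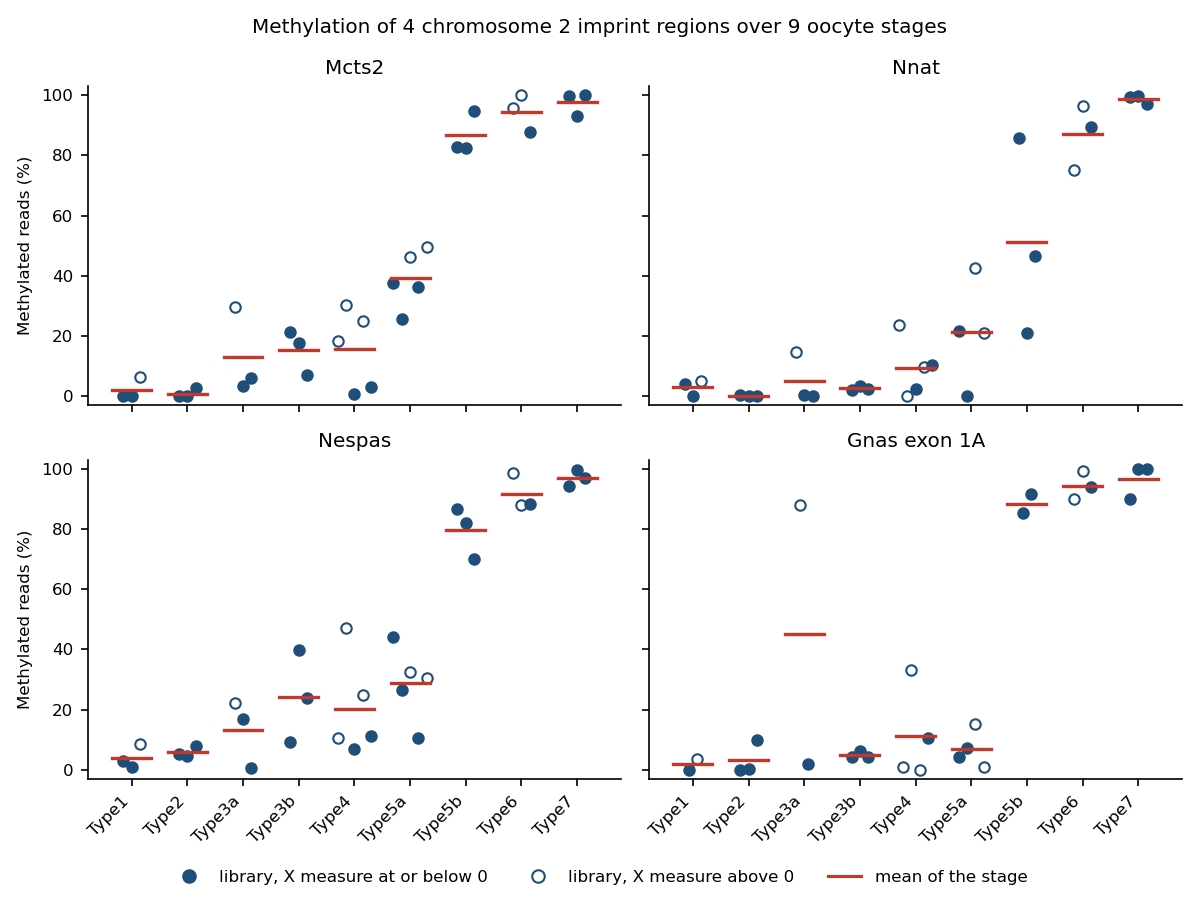
Methylated reads in percent at Mcts2, Nnat, Nespas and Gnas exon 1A (vertical axes) by stage from Type1 to Type7 (horizontal axes), with 1 point per library and a bar at the stage mean. Open points are the 9 libraries with an X measure above 0. Type5b lies far above Type5a at Mcts2, Nespas and, in the 2 libraries with a value, exon 1A, while the 3 Nnat points of Type5b spread from 21.1 to 85.7%, and 1 Type3a point of exon 1A stands at 87.9%.

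Gain before Type5b was compared between early secondary libraries (Type4 and Type5a) and those of primordial and primary follicles. Mcts2 averaged 27.3% ± 16.5 (SD, n = 10) in early secondary and 7.84% ± 9.77 (SD, n = 12) in earlier libraries, a difference of 19.5 points (two-sided permutation p = 0.00356). Nnat averaged 14.6% ± 14.02 (SD, n = 9) in early secondary and 2.72% ± 4.20 (SD, n = 12) in earlier libraries, a difference of 11.9 points (two-sided exact permutation p = 0.00944). Nespas averaged 24.4% ± 14.4 (SD, n = 10) in early secondary and 11.8% ± 11.7 (SD, n = 12) in earlier libraries, a difference of 12.6 points (two-sided permutation p = 0.0367). Groups overlapped at all 4 regions. Exon 1A averaged 9.02% ± 11.1 (SD, n = 8) in early secondary and 11.8% ± 26.9 (SD, n = 10) in earlier libraries, and the difference of -2.81 points did not pass the test (two-sided exact permutation p = 0.982). Without Type3a replicate 1 that difference was 5.63 points (exact permutation p = 0.168).

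Of the early secondary libraries, 5 had an X measure above 0. Without all libraries of an X measure above 0, the difference was 14.9 points in Mcts2 (exact permutation p = 0.0473), 7.39 points in Nnat (exact permutation p = 0.0679) and 8.66 points in Nespas (exact permutation p = 0.264). At Nespas the test was also lost on leaving out any one of Type1 replicates 1 and 2, Type2 replicates 1, 2 and 3, Type3a replicate 4, Type4 replicates 2 and 5, and Type5a replicates 1, 4, 5 and 7, where differences were 10.1 to 12.5 points and the highest permutation p was 0.0790. In the 3 Type5a libraries with an X measure at or below 0, Mcts2 stood at 37.7, 25.6 and 36.4%.

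In Mcts2, Nespas and exon 1A the largest step between the means of adjacent stages was that from Type5a to Type5b. Mcts2 averaged 86.6% ± 6.97 (SD, n = 3) in Type5b and 39.1% ± 9.43 (SD, n = 5) in Type5a, and Nespas averaged 79.5% ± 8.46 in Type5b and 28.8% ± 12.2 in Type5a. The differences were 47.5 and 50.7 points, without overlap, each at an exact two-sided permutation p of 0.0357, the smallest possible. Leaving out any one library left differences of 43.5 to 50.1 points in Mcts2 and 46.1 to 55.4 points in Nespas, with too few libraries for an exact permutation p under 0.0571. Without libraries of an X measure above 0 the differences were 53.4 points in Mcts2 and 52.5 points in Nespas, at the smallest exact permutation p of 3 libraries against 3, 0.1. Exon 1A averaged 88.4% ± 4.59 (SD, n = 2) in Type5b and 6.89% ± 6.14 (SD, n = 4) in Type5a. Its difference of 81.5 points was also without overlap, but 2 libraries against 4 cannot go below an exact permutation p of 0.133. At a minimum of 3 reads per site, where Type5b replicate 2 enters at 4.17%, the exon 1A difference was 53.6 points (exact permutation p = 0.229), and with windows widened by 500 bp it was 50.7 points (exact permutation p = 0.286). Nnat averaged 51.2% ± 32.5 (SD, n = 3) in Type5b and 21.3% ± 17.4 (SD, n = 4) in Type5a, and its difference of 29.8 points did not pass (exact permutation p = 0.171). Relative to the gain from primordial to antral follicles, Type5b stood at 92.4% ± 4.95 for the 2 libraries with an exon 1A value, 90.1% ± 7.37 for Mcts2, 83.5% ± 9.48 for Nespas and 54.3% ± 35.6 for Nnat.

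Among tiles, 9 of the 15 testable ones in the 4 regions were called higher in Type5b than in Type5a and 0 lower, beside 5.14% of all 65397 tiles tested called higher and 0.182% called lower. In 11 of the 15 every Type5b library lay above every Type5a one, as in 10.6% of all tiles tested. All 15 differences were above 0, from 21.5 to 90.9 points, with a median of 52.2 points against 0 over all tiles tested. The count fell to 1 without Type5b replicate 1, to 4 without Type5b replicate 3 and to 5 without Type5a replicate 7, and it was 1 where Type5b and Type5a were fitted without the other stages. Tiles left with fewer than 2 libraries in a group could no longer be tested. Exon 1A, measured in Type5b replicates 1 and 3 only, gave the largest difference, at chr2:174154201-174154300 (Gnas exon 1A tile 4), with 96.4% in Type5b and 5.56% in Type5a (quasi-binomial F test, adjusted p = 0.00224). Mcts2 tile 1 had 94.98% in Type5b and 42.7% in Type5a (adjusted p = 0.00547). Nespas tile 3 at chr2:174123501-174123600 had 77.9% in Type5b and 23.5% in Type5a (adjusted p = 0.0103). Nnat tile 2 at chr2:157385901-157386000 had 69.2% in Type5b and 40.0% in Type5a (adjusted p = 0.0250).

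**Figure D2:**
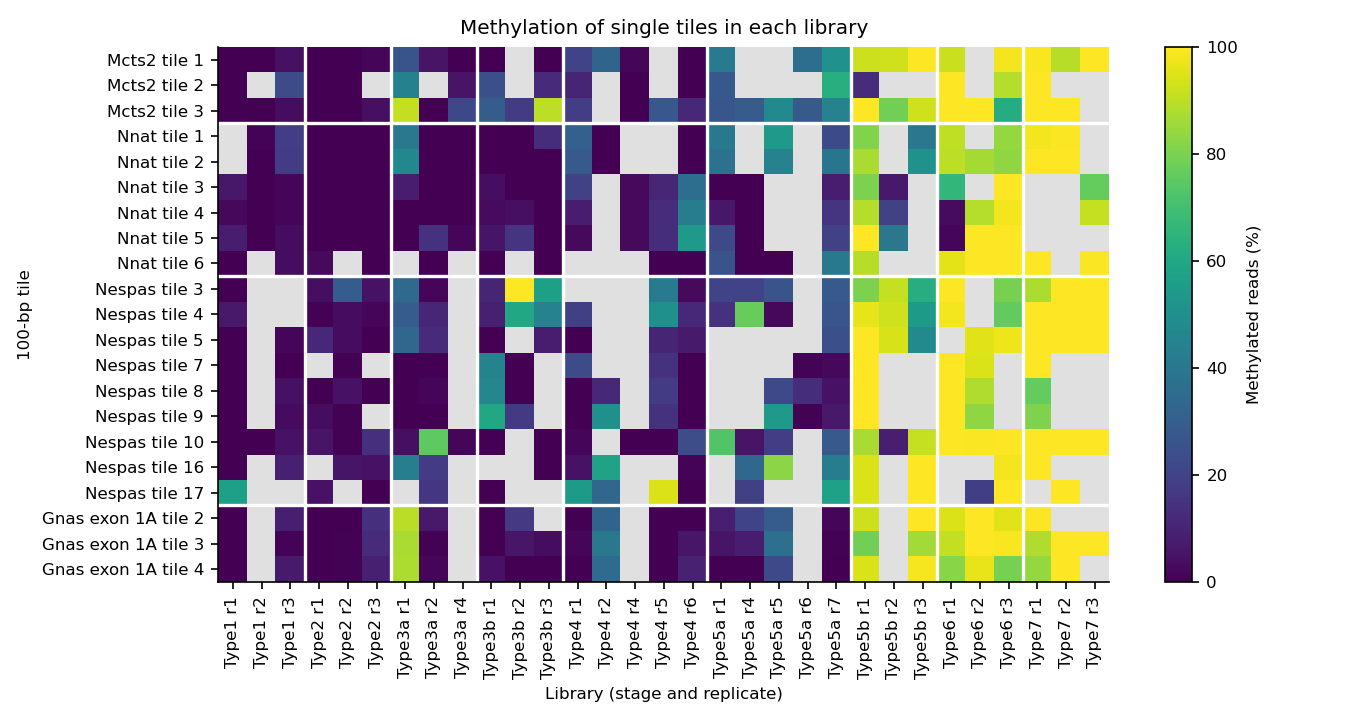
Methylated reads in percent (colour) in 100-bp tiles of the 4 regions measured in at least 15 libraries (rows) by library (columns, grouped by stage from Type1 to Type7), with grey for tiles without a value. Exon 1A tiles turn from dark to bright between Type5a and the 2 Type5b libraries with a value and are bright in Type3a replicate 1, and Nnat tiles 4 and 5 are dark in Type6 replicate 1.

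Tiles of one region differed within single Type5b libraries. Nespas tile 10 was at 87.2, 8.33 and 91.4% in Type5b replicates 1, 2 and 3, while Nespas tile 4 at chr2:174123601-174123700 was at 96.4, 92.7 and 54.5% in the same libraries, with 48 reads behind the lowest value. Replicate 2 was thus low in tile 10 and high in tile 4, while replicate 3 was the higher in tile 10. Mcts2 tile 2 at chr2:152512701-152512800, measured in Type5b replicate 1 only, was at 12.8% of 47 reads, between neighbours at 92.3 and 100%. Nnat tile 4 was at 88.7% in replicate 1 and 19.9% in replicate 2. Tile 2 of Nnat was at 87.3% in Type5b replicate 1 and 51.2% in replicate 3, so replicate 1 was the higher of the libraries measured in both tiles.

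After Type5b, levels were higher in antral libraries at Nespas and Nnat. Nespas averaged 94.2% ± 5.07 (SD, n = 6) in antral and 79.5% ± 8.46 (SD, n = 3) in Type5b libraries, a difference of 14.8 points without overlap (exact two-sided permutation p = 0.0238). Nnat averaged 92.9% ± 9.37 (SD, n = 6) in antral and 51.2% ± 32.5 (SD, n = 3) in Type5b libraries, a difference of 41.7 points (exact permutation p = 0.0476). Antral libraries lay 9.38 points above Type5b in Mcts2 (exact permutation p = 0.0714) and 7.03 points above it in exon 1A (exact permutation p = 0.214), and neither passed. At a minimum of 3 reads per site the exon 1A difference was 33.6 points (exact permutation p = 0.0952). At sites measured in every stage the difference was 26.9 points in Nespas and 5.94 points in Mcts2. For Nnat, leaving out any library other than Type6 replicate 1 took the exact permutation p to between 0.0714 and 0.143, with differences of 26.7 to 59.0 points. For Nespas, leaving out Type5b replicate 1, 2 or 3 gave differences of 18.3, 16.0 and 10.1 points, each at the smallest exact permutation p that 2 libraries allow, 0.0714. Without libraries of an X measure above 0 the differences were 45.2 points in Nnat and 15.3 points in Nespas, each at an exact permutation p of 0.0571.

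No tile of the 4 regions was called between antral and Type5b libraries: 0 of 16 by the quasi-binomial model and 0 by limma, with 2 at an unadjusted p under 0.05, beside 2.76% of all 67018 tiles tested called higher and 0.107% called lower. In 3 of the 16 every antral library lay above every Type5b one, as in 8.98% of all tiles tested. The median difference was 13.7 points over the 16 tiles and 2.14 points over all tiles tested. Nespas tile 10 came nearest to a call, with a difference of 37.6 points (quasi-binomial F test, adjusted p = 0.0649). In Type6 replicate 1, Nnat tile 4 was at 2.86% and the next tile, chr2:157386201-157386300 (Nnat tile 5), at 1.78%, while its Nnat tiles 1, 2 and 3 were at 90.5, 90.2 and 66.3%. The other 2 Type6 libraries had 88.9 and 98.1% in Nnat tile 4. Nnat tile 6 was at 95.7% in Type6 replicate 1, so its low tiles lay between higher ones, and its X measure was 1.04 points. Nnat tiles 5 and 6 were singled out after their values were seen. Among tiles with values from 2 or more libraries in each of the 9 stages, the lowest in Type7 was exon 1A tile 4 at 92.1%, and the highest were Mcts2 tile 3 at chr2:152512801-152512900 and Nespas tile 10, both at 100%.

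Most single sites stood at one extreme in primordial and at the other in antral libraries. Counting library and site pairs with at least 10 reads, 100% of Mcts2 values in Type2 were below 20%, and 93.5% in Type7 were above 80%. The lowest such shares were 83.8% below 20% for Nespas in Type1 and 76.4% above 80% for Nnat in Type6. In Type6, 22.2% of Nnat values were below 20%. In Type5a, 52.8% of Mcts2 values lay between 20 and 80%, against 37.4% for Nnat, 29.7% for Nespas and 6.35% for exon 1A. In the 2 Type5a libraries with an X measure above 0, replicates 5 and 7, the middle share was 87.9% for Mcts2, 52.8% for Nnat, 48.9% for Nespas and 6.38% for exon 1A. In the Type5a libraries with an X measure at or below 0 it was 32.1% for Mcts2, 22.2% for Nnat, 4.23% for Nespas and 6.25% for exon 1A. At Nespas, 46 of the 49 middle values thus came from those 2 libraries, and the part of the X measure in them was not tested. In Type5b the middle share was 9.84% for Mcts2, 11.1% for Nnat, 17.6% for Nespas and 4.35% for exon 1A. Nnat values in Type5b were split, with 38.1% below 20% and 50.8% above 80%. These pairs share libraries and PCR products, so the shares are a description.

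Nespas and exon 1A lie 25999 bases apart in the Gnas cluster and were compared within the same secondary libraries. In Type4 replicates 1, 2, 5 and 6, Nespas minus exon 1A was 9.74, 13.8, 24.8 and 0.472 points, and in Type5a replicates 1, 4, 5 and 7 it was 39.6, 19.3, 17.3 and 29.7 points. In Type5b replicates 1 and 3 it was 1.31 and -21.6 points. Nespas was thus the higher of the pair in 9 of 10 libraries, by 13.4 points ± 17.3 on average (SD, n = 10, exact sign-flip permutation p = 0.0410). The test was lost (highest exact permutation p 0.0820) without Type4 replicate 1, 2 or 5 or Type5a replicate 1, 4, 5 or 7, with means of 10.5 to 13.9 points, and at sites measured in every stage the mean was 9.69 points (exact permutation p = 0.170). With windows widened by 500 bp the mean was 20.9 points (exact permutation p = 0.00439). Without libraries of an X measure above 0 it was 7.83 points over 5 libraries (exact permutation p = 0.563).

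**Figure D3:**
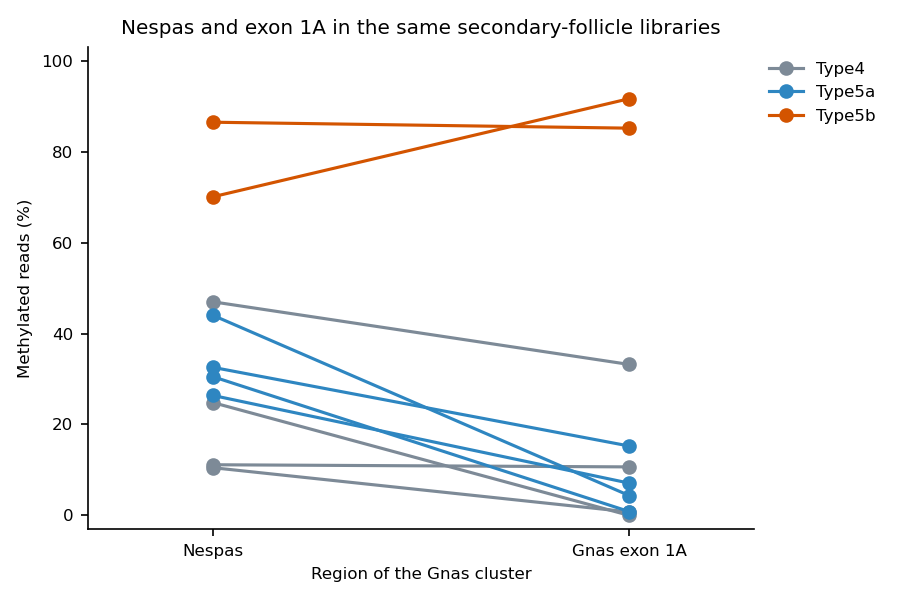
Methylated reads in percent (vertical axis) at Nespas and at Gnas exon 1A (horizontal axis) in the 10 secondary-follicle libraries with both values, 1 line per library and coloured by stage. Lines slope down from Nespas to exon 1A in 9 libraries, and the line of Type5b replicate 3 runs up from 70.1 to 91.6%.

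The sites listed between both regions also gained methylation, while those upstream of Nespas gained little. Between Nespas and exon 1A, 10 sites were listed, and their level was 97.8% ± 2.98 (SD, n = 6) in antral and 7.15% ± 10.8 (SD, n = 5) in primordial libraries. These sites lie within chr2:174142001-174143000 and chr2:174147001-174148000, and the rest of the stretch had no listed site. The same stretch was at 96.4 and 100% in the 2 Type5b libraries with a value and averaged 27.0% over 4 Type5a libraries of 30 to 52 reads each. Upstream of Nespas, over 10 kb, 84 sites averaged 10.6% ± 23.2 (SD, n = 6) in antral and 3.29% ± 3.88 (SD, n = 6) in primordial libraries. Of the antral libraries there, 5 were at 2.52% or less and Type6 replicate 2, whose X measure was 1.31 points, was at 57.9%. Type5b replicate 3 was at 82.4% in that upstream stretch, against 2.61 and 0% in Type5b replicates 1 and 2.

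Downstream of exon 1A, methylated and unmethylated sites lay close together. The last exon 1A site with values in at least 3 antral libraries, at chr2 position 174154239, was at 100%. The next such site lay 1.54 kb further, at 174155776, and was at 15.1%. The 15 sites of the 200 bases from there averaged 2.93% ± 3.76 (SD, n = 6) in antral and 1.20% ± 1.98 (SD, n = 6) in primordial libraries. In all 30 libraries with a value, from 58 to 3509 reads, this fragment was at 9.43% or less. The Gnas promoter printed above lies between the methylated and the unmethylated sites: its last matched site was 225 bases before the unmethylated fragment. Further on, the 6 sites of chr2:174163001-174164000 were again at 94.0% ± 10.4 (SD, n = 3) in antral and 4.60% in primordial libraries (n = 3). Downstream of Nnat, 30 sites stayed at 0.643% ± 1.37 (SD, n = 5) in antral and 0.141% ± 0.316 (SD, n = 5) in primordial libraries. The first of them read in at least 3 antral libraries lay 4.50 kb beyond the last Nnat site, which was at 96.2%. Upstream of Nnat the gain went on, with 28 sites at 94.5% ± 7.87 in antral and 5.75% ± 5.96 in primordial libraries (SD, n = 6 each).

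**Figure D4:**
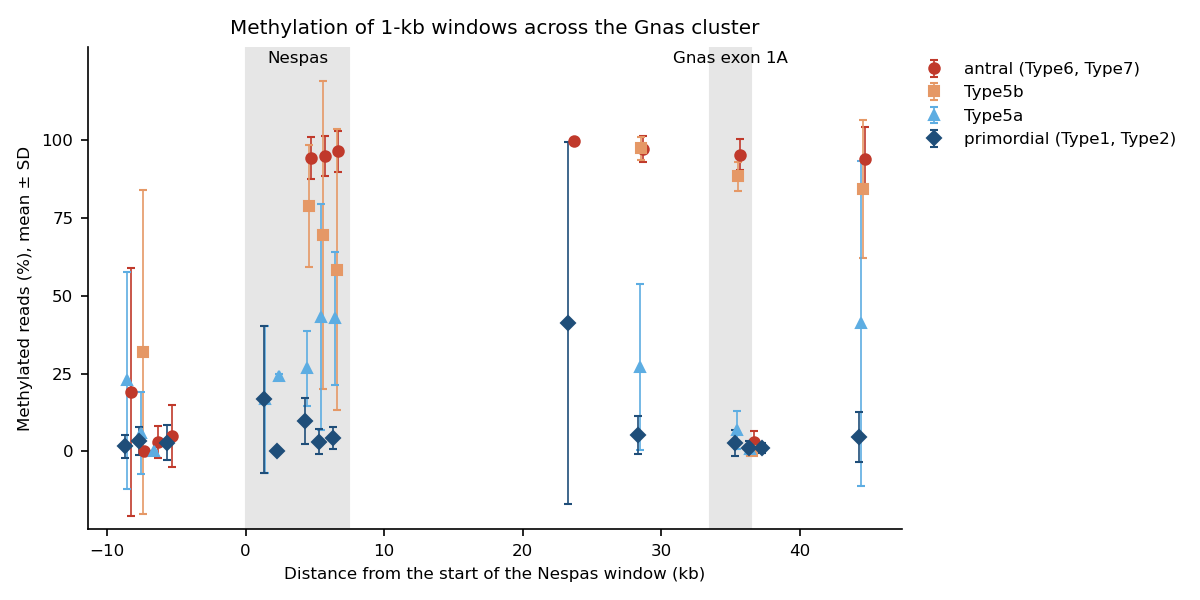
Methylated reads in percent (vertical axis, mean ± SD of libraries) in 1-kb windows of the Gnas cluster with values in at least 2 libraries of a group, by distance in kb from the start of the Nespas window (horizontal axis), for antral, Type5b, Type5a and primordial libraries. Grey bands are the Nespas and exon 1A windows, and error bars run past 0 or 100% where the SD is wide. Antral values are above 90% in the windows plotted within both bands and between them, and near 0 just after the exon 1A sites.

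The 18 matched sites of the Mcts2 promoter are among the 26 sites of the Mcts2 window, so their course is largely that of the region. These 18 sites averaged 95.6% ± 7.50 (SD, n = 6) in antral and 1.34% ± 2.21 (SD, n = 6) in primordial libraries. They stood at 40.7% in Type5a and 87.3% in Type5b. The letters TGCCGC, the core of the motif that the imprint-keeping zinc-finger protein ZFP57 binds when its CpG is methylated, occur once in the printed Mcts2 bases, from base 4, and on neither strand of the Gnas bases. On both strands, 8.68% of the 32851 promoters in the table hold these letters in the same 250 bases. The CpG within them, mm9 position 152512640, was at 0% in all 6 primordial libraries, at 37.0% ± 39.8 (SD, n = 3) in Type5a, and at 100% in all 3 Type5b and all 5 antral libraries with a value.

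CpGs inside CCGG are the cut sites of MspI and end the fragments. In antral libraries such sites averaged 94.9 to 98.5% by region, and the other CpGs 92.5 to 95.9%. In primordial libraries CpGs inside CCGG averaged 5.45 to 14.2% and the others 1.09 to 4.46%.

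Beside the maternal imprint regions Peg10, Mest and Nap1l5 on chromosome 6 and Snrpn, Inpp5f and Kcnq1ot1 on chromosome 7, the 4 regions had the higher median in each stage from Type5a on. In Type5a the median of the stage means was 25.1% over the 4 regions and 15.5% over the 6 others. It was 83.1% over the 4 regions and 67.7% over the others in Type5b. For Type6 the medians were 92.9% over the 4 regions and 80.4% over the others, and for Type7 97.2% over the 4 regions and 96.4% over the others. The range of the 4 regions, 6.89 to 39.1% in Type5a and 51.2 to 88.4% in Type5b, overlapped that of the others, 12.6 to 24.6% in Type5a and 29.6 to 86.8% in Type5b. The upper end in Type5b is exon 1A, whose mean covers 2 libraries. No test was made of this difference.

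**Figure D5:**
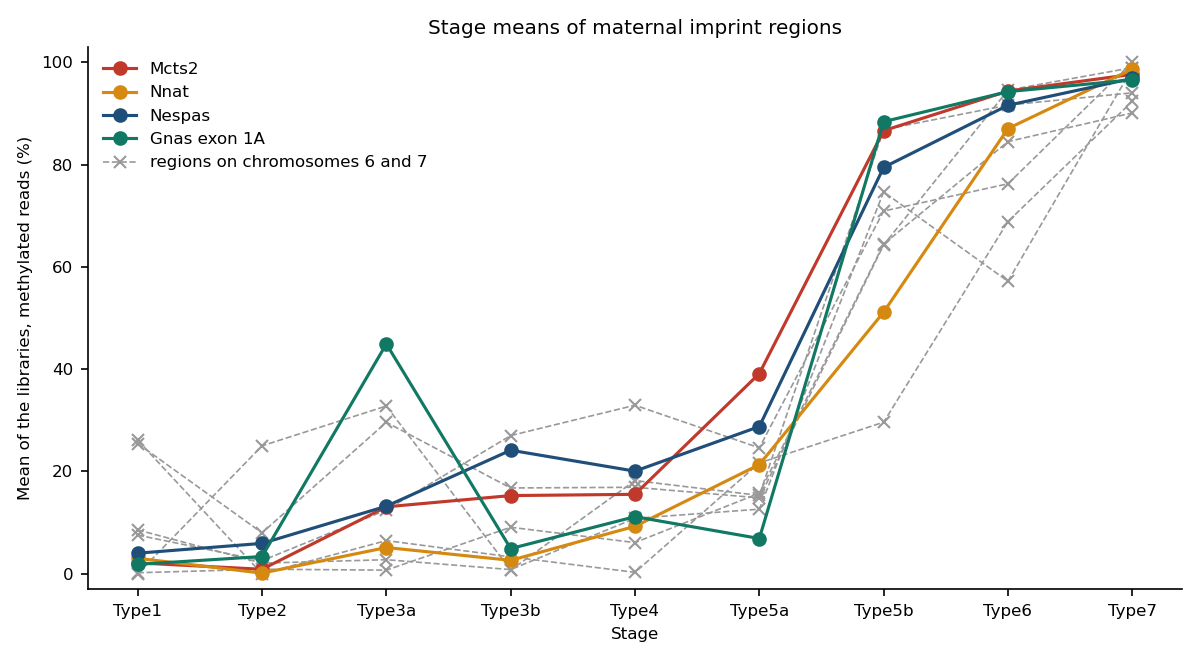
Mean methylated reads in percent over the libraries of a stage (vertical axis) by stage (horizontal axis) for the 4 chromosome 2 regions (solid lines) and 6 maternal imprint regions of chromosomes 6 and 7 (dashed grey lines). All lines end above 90% in Type7, exon 1A has the steepest rise between Type5a and Type5b, where its mean covers 2 libraries, and its peak at Type3a is the mean of 2 libraries at 87.9 and 2.01%.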

How the data were processed

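Reduced representation bisulfite libraries of 31 oocyte samples were analysed. Per the labels' protocols, DNA was cut with MspI, joined to premethylated adaptors, treated with bisulfite, amplified in 2 PCR rounds and selected at 200 to 700 bp. BSMAP 2.89 and the build mm9 come from the submitters' processing notes. The sources used here give no read filters. For each listed cytosine the authors deposited counts of methylated and total reads, which are not normalized, and the methylation level as a fraction. The lowest total listed was 3. A label naming embryo stages goes against the sample titles and was not used, and stages were taken from the titles. Libraries held 7949652 to 60361665 reads summed over sites.

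From the counts, levels over sites with at least 5 reads were formed per library. Differences in means were tested by exact two-sided permutation, or by 100000 resamples where both groups had 10 or more libraries. The quasi-binomial F test of 100-bp tiles had its dispersion moderated by limma 3.58.1 (R 4.3.3) and floored at 1. Of the 163350 tiles with a value in any library, those with at least 2 libraries in each group compared were tested. They were 90684 for antral minus primordial, 65397 for Type5b minus Type5a and 67018 for antral minus Type5b. The p-values of this test were adjusted over all tiles tested. On simulated data this test called more unchanged tiles than its nominal rate. Python 3.11.15 with numpy 2.4.6, pandas 2.3.3 and scipy 1.17.1 was used. Named tiles are the 3 of each region measured in most libraries and those with the lowest and highest Type5b and Type7 level. The X measure used tiles with at least 60 listed sites within 1 kb, 63 on X and 2902 on autosomes. Windows of the regions on chromosomes 6 and 7 were set from general knowledge, and Peg3 and H19 had too few values. The members, windows and lists were chosen with earlier results of these data known. Alternatives were read minimums, site means, a read cap, tile size, windows, a replicate block, limma on tile levels, and leaving out libraries.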

Additional observations from a re-analysis of the deposited data

Results flagged for a closer look

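Of 20 groups of 4 to 10 libraries checked for a library far from the others, 2 held one. For normally distributed values chance gives about 1 in 20 groups. Levels here are bounded and the groups share libraries over the 4 regions, so that rate is a rough guide only. The 2 groups flagged held the same library, Type3a replicate 1, among the primary-follicle libraries. At Nnat it was at 14.8%, while the other 5 primary libraries ran from 0.231 to 3.39%. At Gnas exon 1A it was at 87.9% (95% Wilson interval 82.2 to 91.9%), while the other 4 primary libraries with a value ran from 2.01 to 6.15%. The interval treats counts at different sites of the same read as independent and can be too narrow. The X measure of this library was 1.86 points, above 0 as in 8 other libraries, and its part in these levels was not tested.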

How the results depend on the processing

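Antral minus primordial differences kept their direction and passed the test at all 4 regions under every alternative run. The tile count of 20 ran from 15 (200-bp tiles) to 26 (at least 2 sites per tile), with 18 to 21 without single libraries. Tile size, the minimum of sites and dropped libraries change which tiles can be tested, so 26 exceeds the 23 tiles tested in the main run. Tile counts in this section thus need not share one total, and shares over all tiles are not given for these settings. The exon 1A difference was 49.7 points when windows were widened by 500 bp, which takes in the unmethylated fragment downstream. Leaving out single libraries gave 93.7 to 96.2 points at Mcts2, 89.9 to 94.8 at Nnat, 88.2 to 90.5 at Nespas and 91.8 to 94.4 at exon 1A. In the same order it gave 17.0 to 22.5, 8.41 to 13.7, 10.1 to 15.1 and -6.27 to 5.63 points for early secondary minus primordial and primary libraries, and 43.5 to 50.1, 12.5 to 44.8, 46.1 to 55.4 and 78.3 to 84.8 points for Type5b minus Type5a. For antral minus Type5b it gave 7.26 to 13.4, 26.7 to 59.0, 10.1 to 18.3 and 3.78 to 10.3 points, for Nespas minus exon 1A 10.5 to 17.3 points, and 1 to 9 called tiles for Type5b minus Type5a.

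The Type5b minus Type5a tests, already at their smallest exact p, were lost where libraries dropped out: Mcts2 at 49.3 points with at least 100 reads and 53.4 without libraries of an X measure above 0, and Nespas at 52.5 without those libraries. Its tile count of 9 was 5 with a cap of 10 reads per site, 1 when only the groups compared were fitted, 4 without libraries of an X measure above 0, 2 with a replicate block and 5 by limma. The antral minus Type5b tile count of 0 was 1 with at least 2 sites per tile and 1 with the block. For early secondary libraries, the Nnat test was lost at sites measured in every stage (12.6 points) and without libraries of an X measure above 0 (7.39), and the Nespas test with a minimum of 10 reads (11.8) and without those libraries (8.66). The exon 1A difference changed sign, never passing, to 5.47 (10 reads), 0.682 (site mean), 0.624 (read cap), 1.94 (widened window), 0.467 (sites of every stage), 4.02 (without an X measure above 0) and 5.63 (without Type3a replicate 1). For antral minus Type5b, Nnat was lost at 30.3 points (sites of every stage) and 45.2 (without an X measure above 0), Nespas at 12.5 (10 reads) and 15.3 (without an X measure above 0), and exon 1A turned to -3.36 when widened and was 33.6 with a minimum of 3 reads, not passing. Type5b minus Type5a at exon 1A was 53.6 with that minimum, where Type5b replicate 2 enters, and 50.7 when widened. Nespas minus exon 1A was lost at 13.5 (10 reads), 12.1 (site mean), 12.6 (read cap), 9.69 (sites of every stage) and 7.83 points (without an X measure above 0), and was 20.9 when widened. Apart from the libraries dropped or added, the cause was not tested.

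Replicate numbers did not pair libraries: over 84 same-numbered pairs the correlation of deviations ran from -0.229 to 0.235, with 6 above 0.1. With the numbers as a block, early secondary differences were 16.1 points at Mcts2 and 8.24 at Nnat, not passing, and 21.1 at Nespas, passing, and antral minus Type5b was 41.7 at Nnat and 14.8 at Nespas, neither passing. Type5b and Type5a share 1 number, so their levels had no block fit. Among the named tiles, leaving aside runs without single libraries, 256 alternative values had the same status as in the main run, called or not called. Another 31 lost a call and 3 gained one. The 3 Type5b libraries limit the tests that use them, and at exon 1A the read minimum decides whether Type5b replicate 2 has a value.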
